A study of Arabidopsis thaliana with 2 samples.

Results

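The B-box (BBX) family of Arabidopsis comprises 32 genes, among them CONSTANS (CO) and the microProtein genes miP1a and miP1b, and their DNA methylation was compared between seedlings overexpressing miP1a and the wild type. Genomic DNA came from whole 12-d-old seedlings of miP1a-OX plants, which carry the transgene 35S::FLAG-miP1a, and of Col-0 plants, the wild-type accession without a transgene. Both grew under long days with 16 h of light and 8 h of darkness, and neither received a treatment. The 35S promoter is a viral promoter that is active in most plant tissues, so miP1a-OX expresses the microProtein outside the cells in which the endogenous gene is used. There was 1 bisulfite library per genotype, so the tests below compare these libraries and not the genotypes, and no difference has a replicate check. How many seedlings were pooled and how much of the miP1a gene the transgene carries are not given in the sources used here.

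For every member, the bins in the deposited table that overlapped its body or the stretch of 3000 bases upstream were collected. A bin holds 99 bases, and the table lists bins with a p of at most 0.01 in Fisher's exact test, so a bin that is missing from it has no value here. Of the 32 members, 22 had at least 1 listed bin and 10 had none, with 40 bins in all out of 56731 in the table.

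B-box proteins carry zinc-binding B-box domains through which they bind other proteins, and many act in light signalling and flowering. CO activates the florigen gene FT in long days, and several relatives act with the photomorphogenesis factor HY5 or are degraded through COP1. The microProteins miP1a (BBX31) and miP1b (BBX30) consist of little more than a single B-box, bind CO and bring it together with the co-repressor TOPLESS (TPL). In plants, cytosines are methylated in the CG, CHG and CHH contexts (H is A, C or T), which are maintained by different enzymes. Methylation of transposons usually covers all contexts, whereas methylation within genes lies mostly at CG sites. The deposited levels pool all contexts on both strands, since the cytosine number of each of the 40 bins equalled the number of C plus G in the reference, and a level here is the share of cytosine calls that were methylated.

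Sequences of 10 bins are shown because they carry the results on CO and the microProteins, the bin with the largest difference and its neighbour at COL14, the wholly coding bins at COL4 and STH2, and a bin with a G-box at BBX28. They were read on the plus strand of the TAIR10.1 assembly of RefSeq, and capitals mark CG dinucleotides, so the other c and g letters are CHG or CHH cytosines on either strand.
miP1a, upstream (chr3:7710901-7710999): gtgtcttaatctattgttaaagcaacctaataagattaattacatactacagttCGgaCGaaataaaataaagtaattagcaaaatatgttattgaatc
miP1a, upstream (chr3:7711001-7711099): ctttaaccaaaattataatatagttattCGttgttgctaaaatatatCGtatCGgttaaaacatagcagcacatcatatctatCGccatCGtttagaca
miP1b, upstream (chr4:8706801-8706899): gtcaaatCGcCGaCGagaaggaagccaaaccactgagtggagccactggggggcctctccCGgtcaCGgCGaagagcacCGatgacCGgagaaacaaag
miP1b, upstream (chr4:8707101-8707199): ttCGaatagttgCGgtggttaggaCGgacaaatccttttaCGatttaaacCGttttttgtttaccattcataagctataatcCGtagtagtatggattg
CO, upstream (chr5:5174601-5174699): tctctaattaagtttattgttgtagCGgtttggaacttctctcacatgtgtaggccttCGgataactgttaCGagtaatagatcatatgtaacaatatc
COL14, upstream (chr2:14190601-14190699): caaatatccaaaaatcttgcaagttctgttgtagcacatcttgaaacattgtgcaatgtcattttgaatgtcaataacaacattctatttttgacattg
COL14, upstream (chr2:14190801-14190899): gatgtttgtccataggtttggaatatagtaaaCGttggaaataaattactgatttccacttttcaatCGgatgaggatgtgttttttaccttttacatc
COL4, coding (chr5:8590101-8590199): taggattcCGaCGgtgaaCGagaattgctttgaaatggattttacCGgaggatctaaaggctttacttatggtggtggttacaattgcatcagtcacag
STH2, coding (chr1:28367101-28367199): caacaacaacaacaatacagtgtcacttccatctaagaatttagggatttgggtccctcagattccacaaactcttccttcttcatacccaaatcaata
BBX28, upstream (chr4:13675001-13675099): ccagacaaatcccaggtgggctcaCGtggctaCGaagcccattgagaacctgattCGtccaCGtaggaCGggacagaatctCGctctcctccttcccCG
The bins differed widely in CG content, with none in the nearer COL14 bin and the STH2 bin, 3 CG dinucleotides in the CO bin and many more in the first miP1b bin and the BBX28 bin.

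At the B-box genes most listed bins were lowly methylated and differed by a few percentage points. Median coverage was similar in both libraries, with 162 to 621 calls per bin in miP1a-OX (median 374) and 175 to 733 in Col-0 (median 366). Single bins were less even, with 0.649 to 2.94 times as many calls in miP1a-OX as in Col-0. The level was above that of Col-0 in 26 bins (65%) and below it in 14, beside 64.0% above over all listed nuclear bins. The median level was 3.77% in miP1a-OX and 2.99% in Col-0, beside 13.2% and 8.82% over all listed nuclear bins. Over the listed bins at protein-coding genes it was 6.29% and 5.06%. The absolute difference ranged from 1.04 to 11.8 percentage points, with a median of 4.86 points. That median was 8.03 points over all listed nuclear bins and 6.36 points over those at protein-coding genes. A difference of at least 40 points, the study's own threshold, was reached by 0 of the 40 bins, beside 0.4005% of all listed nuclear bins.

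The Benjamini-Hochberg adjusted p of Fisher's exact test, computed over all bins of the reference genome, was at most 0.05 in 22 of the 40 bins (55%), beside 54.7% of all listed nuclear bins. Of these, 14 were higher in miP1a-OX, beside 35.5% of all listed bins, and 8 were lower, beside 19.3%. They fell in CO, COL4, COL10, COL12, COL14, DBB1b, STH2, BBX23, STH, BBX26, BBX28, miP1b, miP1a and BBX32. The share of all protein-coding genes with such a bin was not computed. The share of B-box bins past the adjusted p was thus close to that of the background. Calls on 1 sequenced fragment are not independent, and after the methylated calls that 1 fragment could supply were taken from the higher library, only the COL10 bin described below was left past the adjusted p. The direction turned at STH2, at 3 BBX26 bins, at BBX27, at BBX32 and at 1 bin each of BBX23 and miP1a, and 16 bins were left with no difference. In the 22 bins where 1 fragment could supply all methylated calls of the higher library, the removal leaves none there. A tie or a turned direction then follows by construction.

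The 40 listed bins were 2.51% of the 1592 bins in the windows of the 32 genes, beside 3.84% for the windows of all protein-coding genes and 4.72% for all bins of chromosomes 1 to 5. With 22 of 32, 68.8% of the members had a listed bin, beside 72.1% of all 27444 protein-coding genes. The members not listed were COL1 (AT5G15850), COL3 (AT2G24790), COL5 (AT5G57660), COL6 (AT1G68520), COL7 (AT1G73870), COL9 (AT3G07650), COL11 (AT4G15250), COL15 (AT1G28050), BZS1 (AT4G39070) and BBX29 (AT5G54470). Among them, COL1 is the closest relative of CO, COL3 acts in light signalling with COP1, COL9 delays flowering, and BZS1 acts in brassinosteroid responses. A single listed bin was found at 11 members, 2 bins at 7, 3 at COL12, and 4 each at COL4, BBX26 and miP1a. All listed bins had the higher level in miP1a-OX at 13 members and the lower level at 4, and 5 members had bins of both directions. The 11 members with a single bin could show only 1 direction, and 64.0% of all listed nuclear bins were higher in miP1a-OX. The matching shares over all protein-coding genes were not computed, so these counts show no trait of the family. The map of bins along the genes shows these positions.

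**Figure D1:**
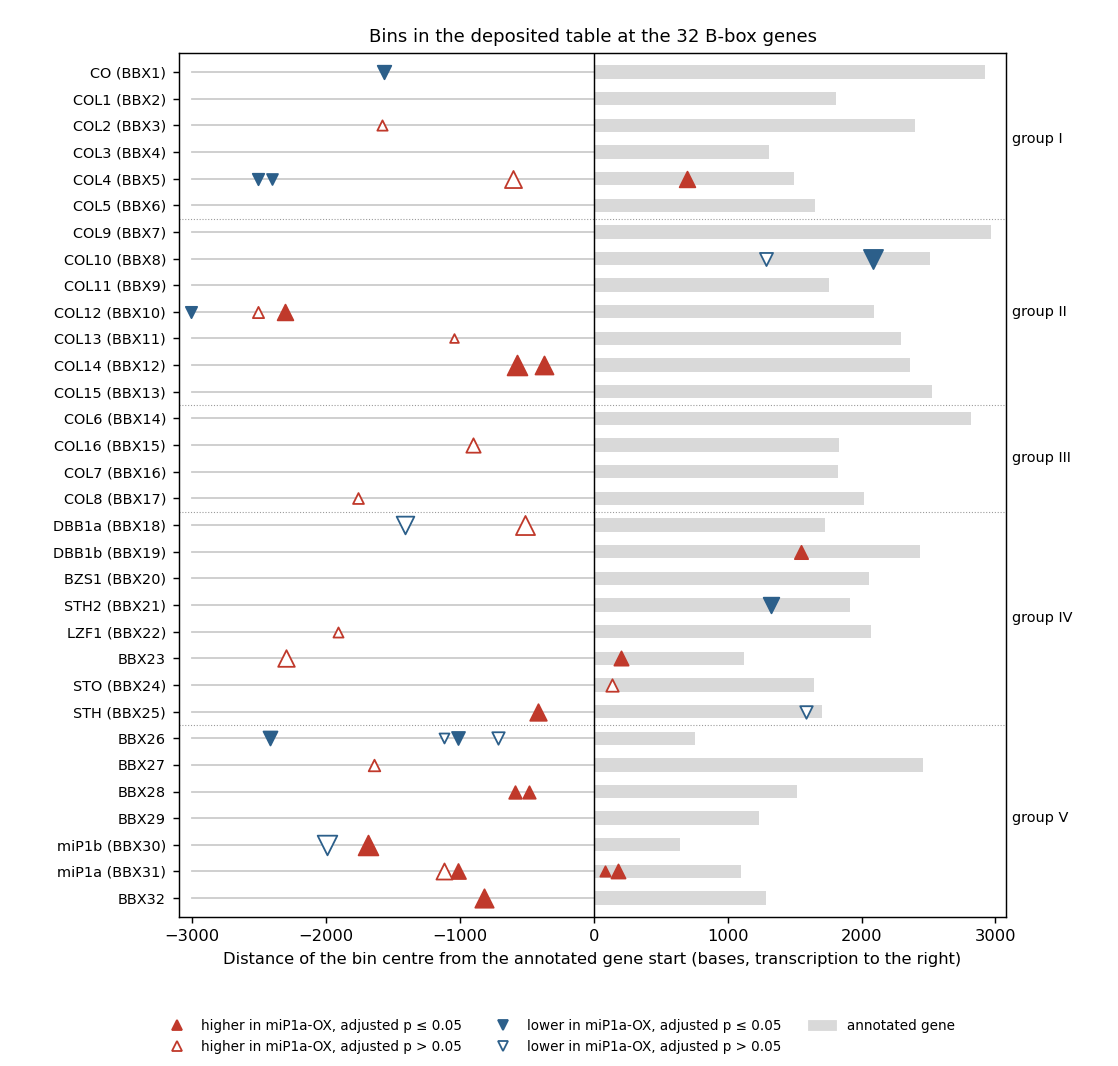
Listed bins along the 32 B-box genes, with the distance of the bin centre from the annotated gene start in bases on the x axis and transcription to the right. Triangles point up for a higher and down for a lower level in miP1a-OX, are filled for an adjusted p of at most 0.05 and grow with the absolute difference; 30 bins lie upstream, 10 within a gene, and 10 genes have none.

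The family is divided by domain structure into 5 groups. Group I, with CO, has a pair of B-boxes and a CCT domain (shared by CO, CO-LIKE and TOC1), and 6 bins were listed of the 301 in its windows (1.99%), of which 4 passed the adjusted p. Group II, with the same domains but a diverged B-box, had 8 of 382 (2.09%), of which 5 passed. Group III, with a single B-box and a CCT domain, had 2 of 209 (0.957%), and neither passed. These CCT proteins include the regulators of flowering. Group IV, with a pair of B-boxes and no CCT domain, had 10 of 393 (2.54%), of which 4 passed. Group V, the proteins with a single B-box and no CCT domain, among them miP1a and miP1b, had 14 of 307 (4.56%), of which 9 passed. In group V 9 bins had the higher level in miP1a-OX and 5 the lower. Over all protein-coding genes 3.84% of the window bins were listed, and over all listed nuclear bins 54.7% passed. The difference between the groups was not tested, because neighbouring bins share reads.

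The plot of levels gives both values of each bin. In the text, the range beside a level is its 95% Clopper-Pearson interval, and a level of 0 is given with the upper limit that 3 calls would set, both for counting error only.

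**Figure D2:**
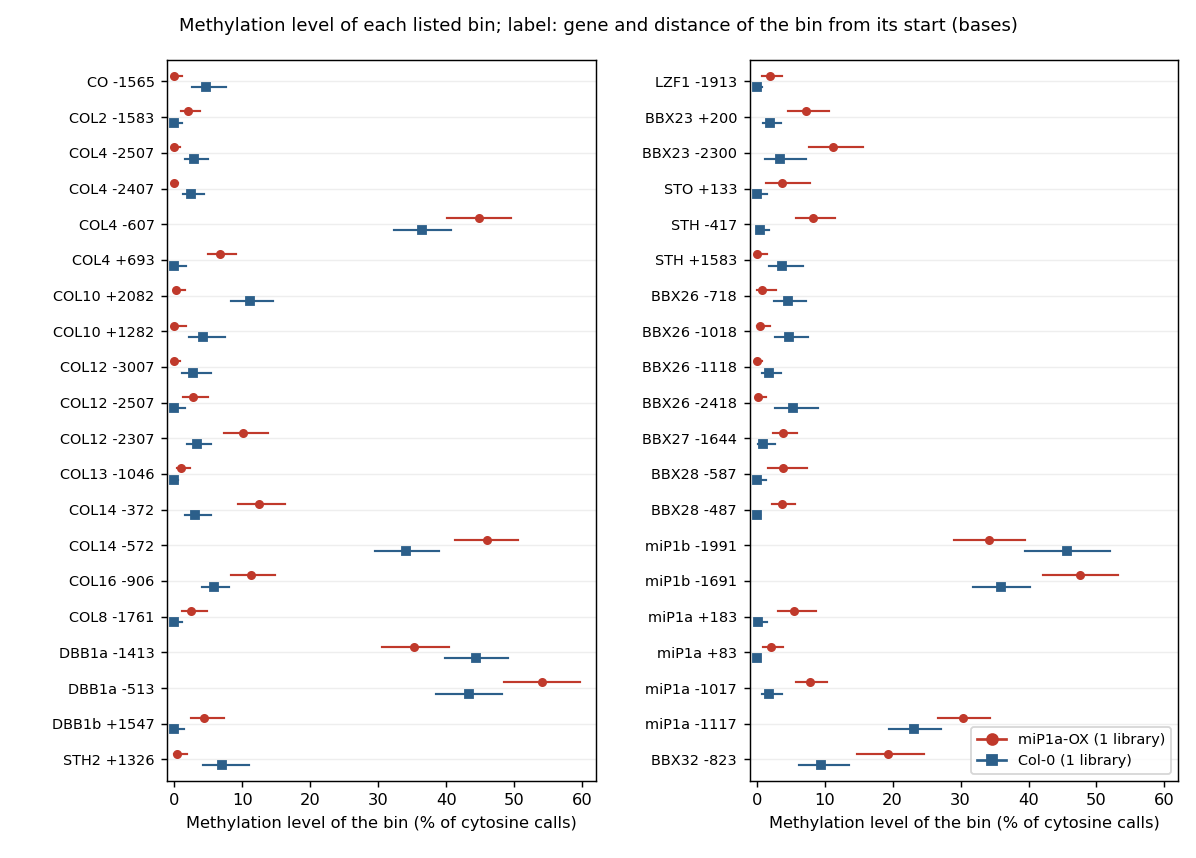
Methylation level of the 40 listed bins in percent of cytosine calls, 1 library per genotype, miP1a-OX as circles and Col-0 as squares, with exact 95% intervals as lines, labelled by gene and by the distance of the bin centre from the gene start in bases. In 33 of the 40 bins both levels are below 20% and in 7 bins both are between 23.1 and 54.1%. The intervals treat each cytosine call as independent and are therefore too narrow.

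At CO (AT5G15840), the activator of FT, a single bin was listed. It lies 1516 bases upstream of the annotated start (chr5:5174601-5174699), within an intron of the lncRNA gene AT5G15845. No call of 328 was methylated in miP1a-OX, which allows up to 0.915%, against 15 of 322 calls in Col-0, 4.66% (2.63 to 7.57%). The bin was therefore lower in miP1a-OX, by 4.66 points (Fisher's exact test, adjusted p = 0.00225). The 15 methylated calls of Col-0 do not exceed the number of cytosines on the richer strand of the bin, 19, so a single fragment could have supplied them. The neighbouring COL1 lies 3005 bases from CO on the same strand and had no listed bin.

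miP1a (AT3G21890), the gene overexpressed in the transgenic plants, had 4 listed bins, in 2 adjacent pairs, and the level was above that of Col-0 in each. Of the pair in its 5' UTR, the bin at chr3:7709701-7709799 had 5.43% (15 of 276 calls, 3.07 to 8.81%) in miP1a-OX and 0.269% (1 of 372, 0.00681 to 1.49%) in Col-0. The difference was 5.17 points (Fisher's exact test, adjusted p = 0.00218). The other, at chr3:7709801-7709899, had 2.05% (9 of 440, 0.939 to 3.85%) in miP1a-OX and 0 of 663 calls in Col-0, which allows up to 0.452% (exact test, adjusted p = 0.0142). Both UTR bins were therefore higher in miP1a-OX as deposited, but a single fragment could have supplied the methylated calls of each, and without them the differences were -0.269 and 0 points. The calls there were fewer in miP1a-OX than in Col-0, 0.742 and 0.664 times as many, and 0 listed bins overlapped the coding sequence of miP1a.

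The upstream pair of miP1a lies in no annotated gene. The bin 968 bases upstream (chr3:7710901-7710999) had 7.92% (46 of 581 calls, 5.85 to 10.4%) in miP1a-OX and 1.86% (7 of 376, 0.752 to 3.80%) in Col-0, and was higher by 6.06 points (Fisher's exact test, adjusted p = 0.00308). It holds 4 CG cytosines of 25, both strands counted. The next bin, 1068 bases upstream (chr3:7711001-7711099), was methylated in both libraries, at 30.4% (178 of 586, 26.7 to 34.3%) in miP1a-OX and 23.1% (114 of 493, 19.5 to 27.1%) in Col-0. It holds 10 CG cytosines of 30, and its difference of 7.25 points did not pass (exact test, adjusted p = 0.194). Whether reads from the transgene contribute to any of these bins was not tested.

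miP1b (AT4G15248), the paralogue that also binds CO, had 2 listed bins in the upstream region, both methylated and of opposite direction. The one 1942 bases upstream (chr4:8706801-8706899) lies in the coding sequence of AT4G15245 and in the noncoding RNA gene AT4G15242. Its level was 34.1% (114 of 334 calls, 29.1 to 39.5%) in miP1a-OX and 45.7% (117 of 256, 39.5 to 52.0%) in Col-0, a difference of -11.6 points that did not pass (Fisher's exact test, adjusted p = 0.130). The one 1642 bases upstream (chr4:8707101-8707199) lies in no annotated gene and had 47.6% (161 of 338, 42.2 to 53.1%) in miP1a-OX and 35.9% (187 of 521, 31.8 to 40.2%) in Col-0. This bin was higher in miP1a-OX by 11.7 points (exact test, adjusted p = 0.0299). It had 0.649 times as many calls in miP1a-OX as in Col-0, the lowest ratio among the 40 bins. Each microProtein gene faces a CO-like gene tail to tail with no gene between, miP1a and COL12 at 486 bases and miP1b and COL11 at 284 bases.

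In group I, COL4 (AT5G24930), a repressor of flowering, had bins of both directions. A pair of adjacent bins 2458 and 2358 bases upstream (chr5:8586901-8586999 and chr5:8587001-8587099) had 0 methylated calls of 471 and of 613 in miP1a-OX, which allows up to 0.637 and 0.489%. In Col-0 they had 13 of 447 calls, 2.91% (1.56 to 4.92%), and 12 of 481, 2.49% (1.30 to 4.32%). Both were lower in miP1a-OX (Fisher's exact test, adjusted p = 0.00600 and 0.00410). A bin wholly in its coding sequence (chr5:8590101-8590199) was higher, with 6.76% (42 of 621, 4.92 to 9.03%) in miP1a-OX and 0 of 211 calls in Col-0, which allows up to 1.42% (exact test, adjusted p = 0.000641). That bin had 2.94 times as many calls in miP1a-OX as in Col-0, the highest ratio of the 40. The bin 558 bases upstream was methylated in both, at 44.8% (198 of 442, 40.1 to 49.6%) in miP1a-OX and 36.4% (195 of 535, 32.4 to 40.7%) in Col-0, and did not pass (exact test, adjusted p = 0.193). COL2 (AT3G02380), a close relative of CO, had 2.05% (9 of 440, 0.939 to 3.85%) in miP1a-OX and 0 of 339 calls in Col-0, which allows up to 0.885%. This bin, 1534 bases upstream, overlaps AT3G02400 and AT3G02410 and did not pass (exact test, adjusted p = 0.152). Of its 43 cytosines, 42 had a call in miP1a-OX and only 27 in Col-0, so the levels rest on partly different sites.

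In group II the smallest p of the family was found at COL10 (AT5G48250), in a bin with 81 coding bases and 18 bases of the 3' UTR (chr5:19561701-19561799). Only 1 of 340 calls was methylated in miP1a-OX, 0.294% (0.00745 to 1.63%), against 48 of 431 in Col-0, 11.1% (8.33 to 14.5%). The bin was lower in miP1a-OX by 10.8 points (Fisher's exact test, p = 5.70e-12, adjusted p = 5.69e-09). It was also the bin left past the adjusted p after the calls of 1 fragment were removed, with a difference of -5.14 points. Its richer strand has 26 cytosines, so a pair of fragments could have supplied all 48 methylated calls of Col-0. Another COL10 bin, mostly intronic (chr5:19562501-19562599), had 0 of 207 calls in miP1a-OX, which allows up to 1.45%, and 11 of 259 in Col-0, 4.25% (2.14 to 7.47%), and did not pass (exact test, adjusted p = 0.0565).

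COL14 (AT2G33500) had a pair of bins close to its start, in no annotated gene. The bin 323 bases upstream (chr2:14190601-14190699) was higher in miP1a-OX, with 12.5% (47 of 375 calls, 9.36 to 16.3%) in miP1a-OX and 3.06% (11 of 359, 1.54 to 5.42%) in Col-0 (Fisher's exact test, adjusted p = 0.000280). It holds 0 CG cytosines among its 30, so each methylated call there lay in a CHG or CHH context of the reference. The bin 523 bases upstream (chr2:14190801-14190899) had 45.9% (215 of 468, 41.4 to 50.6%) in miP1a-OX and 34.1% (143 of 419, 29.6 to 38.9%) in Col-0, with 4 CG cytosines of 32. Its difference of 11.8 points was the largest of the family (exact test, adjusted p = 0.0194). Both bins kept a p of at most 0.01 after the removal of 1 fragment, with differences of 5.32 and 9.52 points.

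COL12 (AT3G21880), which represses flowering and binds CO, had its 3 bins more than 2000 bases upstream, overlapping neighbouring genes, 1 of them by a single base. A bin 2958 bases upstream, in AT3G21865 (chr3:7703201-7703299), was lower, with 0 of 427 calls in miP1a-OX, which allows up to 0.703%, and 8 of 288 in Col-0, 2.78% (1.21 to 5.40%) (Fisher's exact test, adjusted p = 0.0301). A bin in AT3G21870 (chr3:7703901-7703999) was higher, with 10.2% (37 of 364, 7.26 to 13.7%) in miP1a-OX and 3.34% (15 of 449, 1.88 to 5.45%) in Col-0 (exact test, adjusted p = 0.00619), and it holds no CG. COL13 (AT2G47890), with 997 bases between bin and start, had the smallest difference of the family, 1.04% (6 of 577, 0.383 to 2.25%) in miP1a-OX and 0 of 733 calls in Col-0, which allows up to 0.409% (exact test, adjusted p = 0.169).

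Group III had 1 bin each at COL16 (AT1G25440) and COL8 (AT1G49130). At COL16, 857 bases upstream, the level was 11.3% (44 of 391 calls, 8.30 to 14.8%) in miP1a-OX and 5.80% (33 of 569, 4.03 to 8.05%) in Col-0. At COL8, 1712 bases upstream in AT1G49140, it was 2.48% (8 of 323, 1.08 to 4.82%) in miP1a-OX and 0 of 311 calls in Col-0, which allows up to 0.965%. Neither passed (Fisher's exact test, adjusted p = 0.101 and 0.174).

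Group IV holds most of the photomorphogenesis regulators of the family. STH2 (BBX21, AT1G75540), a partner of HY5 that promotes photomorphogenesis, had a bin wholly in its coding sequence (chr1:28367101-28367199) that was lower, with 0.336% (1 of 298 calls, 0.00850 to 1.86%) in miP1a-OX and 7.05% (17 of 241, 4.16 to 11.1%) in Col-0 (Fisher's exact test, adjusted p = 0.00107). This bin holds no CG among 38 cytosines, and without the calls that 1 fragment could supply its difference was 0.336 points. STH (BBX25, AT2G31380), which acts against HY5, had a bin 368 bases upstream (chr2:13381301-13381399), in the 3' UTR of AT2G31370, with 8.29% (32 of 386, 5.74 to 11.5%) in miP1a-OX and 0.513% (2 of 390, 0.0622 to 1.84%) in Col-0. It was higher by 7.78 points (exact test, adjusted p = 6.28e-06) and kept a p of at most 0.01 after the removal of 1 fragment, at 3.03 points. Its richer strand has 19 cytosines, so a pair of fragments could have supplied all 32 methylated calls of miP1a-OX. In the STH gene itself, a bin at the 3' UTR had 0 of 246 calls in miP1a-OX, which allows up to 1.22%, and 10 of 264 in Col-0, 3.79% (1.83 to 6.86%), and did not pass (exact test, adjusted p = 0.0656).

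DBB1b and BBX23 each had a bin that passed, both higher in miP1a-OX. Without the calls that 1 fragment could supply, the differences were 0 points at DBB1b, by construction, and 0.394 points at BBX23. DBB1b (BBX19, AT4G38960), which delays flowering through CO, had 4.40% (14 of 318 calls, 2.43 to 7.28%) in miP1a-OX and 0 of 260 calls in Col-0, which allows up to 1.15%, in an intron (chr4:18162401-18162499; Fisher's exact test, adjusted p = 0.0130). BBX23 (AT4G10240), which promotes photomorphogenesis with HY5, had 7.26% (23 of 317, 4.65 to 10.7%) in miP1a-OX and 1.93% (9 of 466, 0.887 to 3.63%) in Col-0 in its 5' UTR (chr4:6369701-6369799; exact test, adjusted p = 0.0180).

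At the remaining genes of group IV no bin passed. DBB1a (BBX18, AT2G21320), a repressor of photomorphogenesis, had methylated bins of opposite direction, the smaller p at 464 bases upstream with 54.1% (171 of 316 calls, 48.4 to 59.7%) in miP1a-OX and 43.3% (178 of 411, 38.5 to 48.3%) in Col-0 (Fisher's exact test, adjusted p = 0.120). Its other bin, in the pseudogene AT2G21310, had 35.3% (135 of 382, 30.5 to 40.4%) in miP1a-OX and 44.4% (208 of 468, 39.9 to 49.1%) in Col-0 with only 1 CG cytosine of 48 (exact test, adjusted p = 0.175). LZF1 (BBX22, AT1G78600), which promotes photomorphogenesis, had 8 of 418 calls in miP1a-OX, 1.91% (0.830 to 3.74%), and 0 of 452 in Col-0, which allows up to 0.664%, in the coding sequence of AT1G78590 (exact test, adjusted p = 0.0861). STO (BBX24, AT1G06040), which acts against HY5, had 6 of 162 calls in miP1a-OX, 3.70% (1.37 to 7.89%), and 0 of 242 in Col-0, which allows up to 1.24%, in its 5' UTR, where it also overlaps the gene AT1G06045 (exact test, adjusted p = 0.111).

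In group V beside the microProteins, BBX26 (AT1G60250) had the lower level in miP1a-OX at all of its 4 bins. The bin 2369 bases upstream, in the coding sequence of AT1G60260 (chr1:22220201-22220299), had 0.246% (1 of 407 calls, 0.00622 to 1.36%) in miP1a-OX and 5.31% (12 of 226, 2.77 to 9.09%) in Col-0 and was lower (Fisher's exact test, adjusted p = 0.00293). The bin 969 bases upstream (chr1:22218801-22218899) had 0.536% (2 of 373, 0.0650 to 1.92%) in miP1a-OX and 4.72% (16 of 339, 2.72 to 7.55%) in Col-0 and was lower as well (exact test, adjusted p = 0.0213). The methylated calls of Col-0 were few in each of the 4 bins, 16, 16, 8 and 12, and never more than the cytosines of the richer strand. In each bin taken alone, a single fragment could have supplied the calls of that bin. Without these calls, by construction, none of the 4 bins was lower in miP1a-OX.

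BBX28 (AT4G27310), which inhibits HY5, had a pair of adjacent bins, both higher in miP1a-OX and without a methylated call in Col-0. The bin 538 bases upstream (chr4:13674901-13674999) had 3.85% (8 of 208 calls, 1.67 to 7.44%) in miP1a-OX and 0 of 273 in Col-0, which allows up to 1.10% (Fisher's exact test, adjusted p = 0.0452). The bin 438 bases upstream (chr4:13675001-13675099) had 3.69% (19 of 515, 2.24 to 5.70%) in miP1a-OX and 0 of 675 in Col-0, which allows up to 0.444% (exact test, adjusted p = 2.76e-05). BBX32 (AT3G21150), which inhibits BBX21, had 19.3% (51 of 264, 14.7 to 24.6%) in miP1a-OX and 9.40% (25 of 266, 6.17 to 13.6%) in Col-0 and was higher in a bin 774 bases upstream in AT3G21160 (chr3:7414501-7414599; exact test, adjusted p = 0.0477), although without the calls that 1 fragment could supply its difference was -0.0368 points. BBX27 (AT1G68190) had 3.93% (21 of 535, 2.45 to 5.94%) in miP1a-OX and 0.920% (3 of 326, 0.190 to 2.67%) in Col-0 in the coding sequence of AT1G68185 and did not pass (exact test, adjusted p = 0.201).

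The bins fell into a large class of low level and a small class of high level. At 33 bins (82.5%) both libraries were below 20%, beside 57.2% of all listed nuclear bins and 70.2% of those at protein-coding genes. In 7 bins both were at or above 20%, namely 1 bin each of COL4, COL14 and miP1a and both bins of DBB1a and miP1b. The 7 bins had levels of 30.4 to 54.1% in miP1a-OX and 23.1 to 45.7% in Col-0, differences of 7.25 to 11.8 points, and an adjusted p of at most 0.05 in 2 (28.6%, beside 48.9% of all listed nuclear bins with 20% or more in both libraries). The 33 bins had levels of up to 19.3% in miP1a-OX and 11.1% in Col-0, differences of 1.04 to 10.8 points, and an adjusted p of at most 0.05 in 20 (60.6%, beside 56.5% of all listed nuclear bins with less than 20% in at least 1 library).

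Many of the low bins had no methylated call in a library. That was so in 18 of the 40 bins (45%), 7 in miP1a-OX and 11 in Col-0, beside 20.1% of all listed nuclear bins and 28.6% of those at protein-coding genes. In 22 bins (55%, beside 29.9% and 41.8%) the methylated calls of the higher library did not exceed the cytosines on the richer strand of the bin. In each of these bins taken alone, a single fragment could have supplied them. All bins of CO, DBB1b, STH2, BBX26 and BBX28 and both 5' UTR bins of miP1a belong to these. Both COL14 bins, the COL10 bin with 48 methylated calls, the upstream STH bin and both upstream miP1a bins had more.

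The level of a bin could exceed what its CG cytosines alone would allow. CG cytosines made up a median of 13.3% of all cytosines in the 40 bins, beside 11.1% over all listed nuclear bins. Of all listed nuclear bins 45.1%, and of those at protein-coding genes 29.6%, had a level above their CG share in both libraries. At the B-box genes 10 bins (25%) did. Calls in CHG or CHH contexts were then counted as methylated there, if all cytosines were covered alike. Cytosines that escaped bisulfite conversion cannot be told apart from methylated ones in these counts. In a bin without any CG, a single methylated call puts the level above the share. The 8 bins without any CG, among them those at COL14 and STH2, reached 2.05 to 12.5% in the higher library. Across the 40 bins, the CG share and the level in Col-0 had a Pearson correlation of 0.29 and a Spearman correlation of 0.14, given as a description, since the bins share 2 libraries and adjacent bins share reads.

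**Figure D3:**
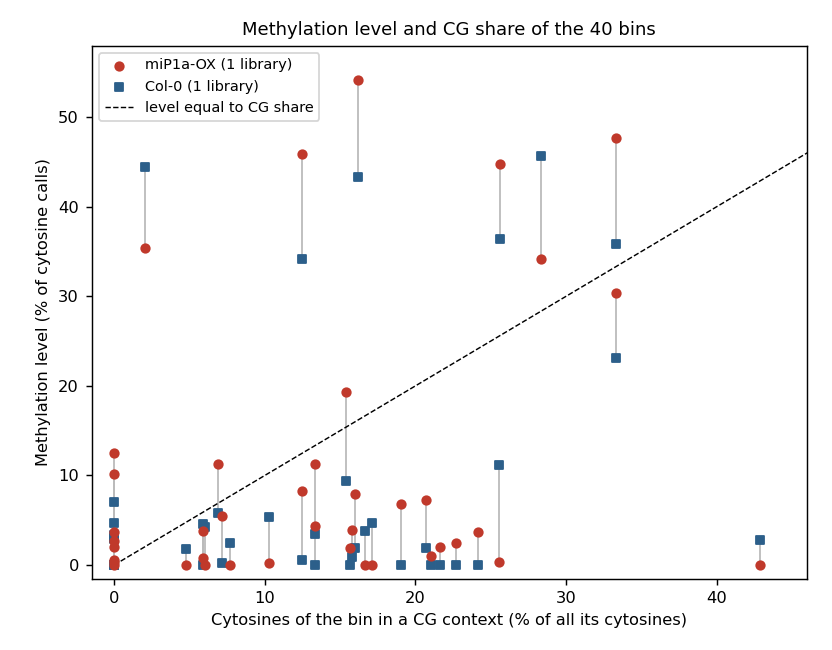
Methylation level in percent of cytosine calls against the share of cytosines in a CG context in percent, for the 40 bins, with miP1a-OX as circles and Col-0 as squares joined by a line per bin, 1 library each. The dashed line marks a level equal to the CG share, and 10 bins lie above it in both libraries.

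The sequence CACGTG, the G-box bound by HY5 and related factors, reads the same on both strands and was found in 2 of the 40 bins (5%), beside 0.792% of all listed nuclear bins and 1.08% of all 1191461 bins searched. One is the BBX28 bin 438 bases upstream shown above, and the other is the 5' UTR bin of miP1a with 0 methylated calls in Col-0. A match is a description and not a binding site.

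By position, 30 bins lay upstream and 10 within a member gene. Within genes 1.58% of the bins were listed (10 of 632), beside 3.12% for all protein-coding genes. In the first 1000 bases upstream it was 4.06% (13 of 320), beside 3.97%. From 1001 to 2000 bases it was 3.13% (10 of 320), beside 4.23%, and from 2001 to 3000 bases 2.19% (7 of 320), beside 4.01%. The share at B-box genes was thus near that of all genes close to the start and below it elsewhere, as counts with no test. Upstream regions often belonged to other genes, and 16 of the 30 upstream bins lay in an annotated neighbour, so their level can also be read as that of the neighbour. Of the 10 bins within genes, 5 had coding bases and 2 were wholly coding, at COL4 and STH2. A copy elsewhere in the genome of at least 90% identity over 80 bases was found for 6 bins, at COL4, COL8, DBB1a, BBX26 and BBX32, with 2 at BBX26. In all 5 pairs of adjacent listed bins both bins had the same direction, but adjacent bins share reads. The share of such pairs over all adjacent listed bins was not computed.

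**Figure D4:**
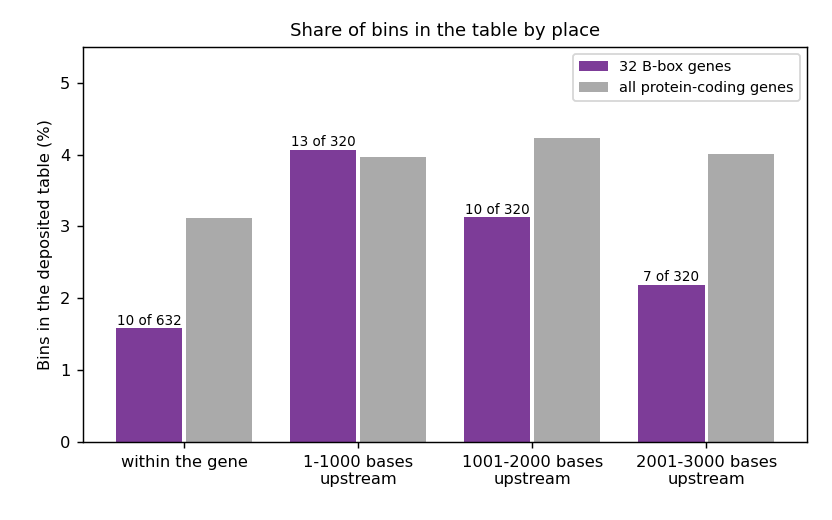
Share of bins that were in the deposited table, in percent, within the gene and in 3 upstream intervals, for the 32 B-box genes and for all protein-coding genes, with the counts of B-box bins above the bars. The B-box share is 4.06% in the first 1000 bases upstream and 1.58% within genes.

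Genes that act with the B-box proteins were examined in the same windows, namely 23 genes of the COP1/SPA ligase, HY5 and HYH, NF-Y subunits, TPL and its relatives, JMJ14, and flowering and clock regulators around CO. Of these, 16 had a listed bin (69.6%, beside 72.1% of all protein-coding genes). Their 39 distinct bins were 21 with the higher level in miP1a-OX (53.8%, beside 64.0% of all listed nuclear bins) and 18 with the lower. The adjusted p was at most 0.05 in 24 bins (61.5%, beside 54.7%), 14 higher and 10 lower, and 0 bins reached 40 points, beside 0.4005%. The largest difference, 24.6 points, was found 2086 bases upstream of SPA4, a component of the ligase that degrades CO, with 56.6% (185 of 327 calls) in miP1a-OX and 31.97% (180 of 563) in Col-0 (Fisher's exact test, adjusted p = 1.34e-09). At JMJ14, a histone H3K4 demethylase, 3 bins within the gene were lower, with 0 of 315, 0 of 316 and 0 of 409 calls in miP1a-OX and 13 of 274, 14 of 234 and 16 of 289 in Col-0. At TPL 2 bins were higher, with 9 of 432 and 14 of 374 calls in miP1a-OX and 0 of 487 and 0 of 564 in Col-0. The methylated calls at JMJ14 and TPL were few. Whether a single fragment could have supplied them was not tested at the partner genes.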

How the data were processed

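Bisulfite libraries of 12-d-old seedlings, 1 of miP1a-OX and 1 of Col-0, were analysed. Per the study's methods, the authors mapped the reads with BS-Seeker2 2.1.0 and Bowtie2 to TAIR9, called methylation with Methpipe and divided the genome into bins. The values deposited for each bin are counts of cytosine calls, methylated and unmethylated, with no normalization. The rate of bisulfite conversion is not given in the sources used here, and its part in the low levels was not tested. The sample records name soil and the methods name MS plates as growth medium. The deposited p-values, differences and 10 further per-library columns, and the shorter merged list, were not used.

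Genes and coordinates come from TAIR10.1 (RefSeq), which held all 32 members and gave the same number of cytosines for every nuclear bin in the table. A two-sided Fisher's exact test per bin was run with scipy 1.17.1, with a minimum of 10 calls per library. Benjamini-Hochberg adjustment was over the 1196690 bins of the reference, since bins with p above 0.01 are not in the table. The test was tried on simulated data with independent calls and changes larger than any at the B-box genes. That trial does not show how the test behaves with calls that share a fragment or with small differences. Python 3.11.15, pandas 2.3.3, numpy 2.4.6, matplotlib 3.10.9 and blastn 2.17.0 were also used. Bases upstream count from the gene start to the nearest edge of the bin.

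Named bins were all those of CO, miP1a and miP1b, those past an adjusted p of 0.05 and otherwise the bin with the smallest p of each gene; a few further bins and the 3 examples among the partner genes were chosen after their values were seen. The members, the partner genes and the structural groups were chosen with earlier results of these data known. Other windows, call minimums and thresholds, thinning, removal of 1 fragment, division by read and centring were tried.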

Additional observations from a re-analysis of the deposited data

How the results depend on the processing

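No paired analysis was possible because there is 1 library per genotype, and for the same reason no library could be left out. The 40 listed bins became 10 within genes alone, 23 with 1000 bases upstream and 23 outside other annotated genes. Within genes alone, 8 members had a bin and 7 bins passed the adjusted p. A threshold of 0.01 for the adjusted p left 13 of the 22 bins. Removing the methylated calls of 1 fragment left 1 bin past the adjusted p and 40% of bins with the higher level in miP1a-OX, since 16 bins were tied. Of the 24 with a difference left, 66.7% were higher. These 24 include the 8 bins whose direction turned, so the share does not show that directions were kept. In 22 bins the removal sets the methylated calls of the higher library to 0, so by construction their direction could only be lost. With the removal, 5 of the 40 bins kept their direction with a p of at most 0.01. Centring subtracts the median difference of all listed nuclear bins, 5.26 points, so by construction it turns every smaller positive difference, and the 35% of bins then higher says nothing of the direction of single bins. When a read counted about once, 0 of the 40 bins kept a p of at most 0.01 by Fisher's exact test, whereas all had one as deposited. So few counts were left per bin that differences of this size could not reach that p. The outcome was thus fixed by the setting and says nothing of single bins. Thinning to equal calls left 31. Removing 1 fragment reversed the difference at STH2 (0.336 points), BBX23 (-0.949), BBX26 (0.813, 0.536 and 0.246), BBX27 (-0.920), miP1a (-0.269) and BBX32 (-0.0368). The differences turned by centring were those of COL2 (-3.22), COL12 (-2.55), COL13 (-4.22), COL8 (-2.79), DBB1b (-0.861), LZF1 (-3.35), STO (-1.56), BBX27 (-2.26), BBX28 (-1.42 and -1.57) and miP1a (-0.0978 and -3.22). No bin reached 40 points under any alternative run. Call minimums of 1, 20 and 50 could change no count, since each bin had at least 162 calls. Differences of 1 to 5 points rest on few methylated calls, so depth limits what they show.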
